A study of Mus musculus with 30 samples.

Results

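The genes described here encode the immune receptor ligand CD200 (Cd200), 3 members of the CD200 receptor family (Cd200r1, Cd200r3 and Cd200r4) and 2 Ly49 receptors, Ly49B (Klra2) and Ly49Q (Klra17). They are 6 of the 37991 gene identifiers in the count table, all 6 carried counts, and all 6 are among the 11030 genes that passed the filter on low counts. They were chosen with their levels in the inflammatory hemophagocytes already known, so those levels are given as a description and without a test. The counts come from 30 RNA-seq libraries of 500 sorted spleen cells each, taken from 12 female mice, 6 wild-type (WT) B6 and 6 TLR7.1. TLR7.1 mice overexpress Tlr7, the endosomal sensor of single-stranded RNA. No treatment is named for any group, and each library comes from 1 mouse. The 5 groups of n = 6 were Mono and RPM of WT mice aged 9.4 to 15.7 weeks, and iHPC, RPM and Mono of TLR7.1 mice aged 10 to 15 weeks. Mono are Ly6C-high monocytes, sorted as Ly6C+ cells with Ccr2 and CD11b. RPM are red pulp macrophages, sorted as F4/80+ VCAMhi CD31low cells without Ly6C and with no or intermediate CD11b. The iHPC are inflammatory hemophagocytes, cells that take up other blood cells, and were sorted as CD11b+ CD31hi cells with low VCAM and F4/80 and no Ly6C. All sorted cells were alive, carried CD45.2 and lacked Ly6G and SiglecF. iHPC came from TLR7.1 mice alone, so for them population and genotype cannot be told apart, and they are compared here with Mono and RPM of the same 6 mice.

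CD200 is a membrane protein of lymphocytes, endothelium and neurons that restrains myeloid cells through CD200R1, an inhibitory receptor whose tail recruits Dok adaptors. CD200R3 and CD200R4 have short tails and signal through the activating adaptor DAP12, and CD200R3 is known from basophils and mast cells. Ly49 receptors are C-type lectin-like proteins of the natural killer gene complex, best known as sensors of class I MHC on natural killer cells. Ly49B and Ly49Q are the members known from myeloid cells, both with an inhibitory ITIM motif in the tail, and Ly49Q is also carried by plasmacytoid dendritic cells.

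Levels are normalised CPM, in which the counts of each library are scaled to 1 total size after correction by TMM factors, given as mean ± SD with n = 6 mice unless stated. Library totals ran from 95002 to 1932427 counts, with group medians of 1112665 in iHPC, 820242 and 544757 in the RPM of TLR7.1 and WT mice, and 1656511.5 and 1584430 in their Mono. Tlr7 stood at 307 ± 52.8 and 222 ± 108 CPM in WT Mono and WT RPM, against 995 ± 181, 1030 ± 340 and 1120 ± 133 CPM in TLR7.1 Mono, RPM and iHPC. The sort genes followed the gates: Ccr2 averaged 1280 CPM in WT Mono, Vcam1 3340 CPM in WT RPM, and Pecam1 (CD31) 516 CPM in iHPC. The iHPC library of mouse 24261 stood apart from the other 5 iHPC libraries in basophil genes, as described below with and without it. Cells were sorted in bulk, so fewer cells carrying a transcript and less of it per cell cannot be told apart.

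The DNA before the transcription starts is shown for a pair of genes from each family, since both pairs contain 1 gene that was nearly restricted to iHPC and 1 that was not. The windows are the 250 bases before the start, written in the direction of transcription, from RefSeq on GRCm38.p6. An entry was found for 5 of the 6 genes. Capitals mark runs of at least 10 identical bases in the alignment of each pair. The Klra17 window is chr6:129876673-129876922 and that of Klra2 is chr6:131247363-131247612, both on the minus strand.
Klra17: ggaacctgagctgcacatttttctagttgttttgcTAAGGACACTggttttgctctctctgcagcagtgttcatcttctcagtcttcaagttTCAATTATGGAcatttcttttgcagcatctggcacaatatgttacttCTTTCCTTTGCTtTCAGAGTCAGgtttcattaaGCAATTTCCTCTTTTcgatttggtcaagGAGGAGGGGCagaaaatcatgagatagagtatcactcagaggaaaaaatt
Klra2: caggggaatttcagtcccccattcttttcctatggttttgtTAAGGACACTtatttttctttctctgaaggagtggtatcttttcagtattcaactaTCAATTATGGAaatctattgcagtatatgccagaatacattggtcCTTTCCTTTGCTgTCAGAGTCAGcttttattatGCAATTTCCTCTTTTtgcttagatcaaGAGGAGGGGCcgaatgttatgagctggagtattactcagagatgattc
Of 243 aligned bases these windows share 192 (79.0%), 68 of them in capitals. The Klra17 window shared more with that of Klra4, another Ly49 gene (83.5% of 243 aligned bases), and less with that of Klra1 (49.0% of 241). Cd200r3 (chr16:44943428-44943677) and Cd200r4 (chr16:44820478-44820727) lie on the plus strand.
Cd200r3: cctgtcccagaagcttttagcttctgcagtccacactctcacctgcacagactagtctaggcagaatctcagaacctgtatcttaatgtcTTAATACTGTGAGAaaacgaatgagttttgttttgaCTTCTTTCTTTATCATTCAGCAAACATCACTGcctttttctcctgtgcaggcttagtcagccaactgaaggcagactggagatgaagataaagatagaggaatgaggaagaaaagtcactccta
Cd200r4: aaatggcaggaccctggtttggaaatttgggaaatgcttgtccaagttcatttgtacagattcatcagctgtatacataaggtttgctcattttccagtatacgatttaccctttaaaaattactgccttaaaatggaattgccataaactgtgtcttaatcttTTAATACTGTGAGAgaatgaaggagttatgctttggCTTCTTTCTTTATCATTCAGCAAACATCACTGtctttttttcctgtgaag
They share 133 of 176 aligned bases (75.6%), 46 of them in capitals. Between Cd200r3 and Cd200, 129 of 224 aligned bases matched (57.6%). In the windows of 250 bases before the start, 6 motifs were searched on both strands, overlaps allowed. They were GAGGAAGT for PU.1, GGAANNGAA for a joint ETS and IRF site and AAAGGTCA for nuclear receptors. For AP-1 factors the word searched was TGANTCA. For E-box factors it was CACGTG. For GATA factors it was GATAAG. GGAANNGAA was in the Klra2 window on the opposite strand, at position -229 from the start, and 6.99% of 32817 windows of that length hold it. The other 5 motifs, held by 1.34% to 6.75% of all windows, were in none of the 5 windows searched, nor was GGAANNGAA in those of the other 4 genes.

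Cd200, the ligand, was a low transcript of red pulp macrophage sorts. In WT Mono it ran from 0 to 7.19 CPM (median 1.54) and in WT RPM from 1.99 to 41.8 CPM (median 13.2). TLR7.1 Mono spanned 0 to 3.50 CPM (median 0), TLR7.1 RPM 0 to 45.0 CPM (median 20.5) and iHPC 0 to 10.6 CPM (median 4.58). The groups overlapped, and no step between neighbours in the order of means (TLR7.1 RPM, WT RPM, iHPC, WT Mono, TLR7.1 Mono) exceeded the larger SD of the pair. Cd200 was higher in WT RPM than in WT Mono by a log2 of 2.96 ± 0.999 (SE; edgeR adjusted p = 0.0148), with RPM above Mono in 6 of 6 mice. Neither genotype comparison called it. By pooled counts iHPC held 0.168 times the level of RPM of the same mice (95% counting interval 0.108 to 0.254, 29 against 126 counts). Pooling gives deeper libraries more weight, and such intervals leave out the spread between mice. The ratio of mean CPM was 0.241. iHPC were lower than RPM in 4 of the 6 mice and higher in 1.

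B and T cells carry CD200, and the libraries with the most Cd200 were also the highest in B cell markers. Groups did not follow the same order in the summed levels. The summed level of Cd79a, Cd79b and Ms4a1 was 128 to 720 CPM in WT RPM (median 374) and 126 to 259 CPM in WT Mono (median 228). For Cd3d, Cd3e, Cd3g and Cd4 these ranges were 37.8 to 200 and 0 to 7.04 CPM. The 4 libraries with the highest Cd200 were RPM of mice 24107 (45.0 CPM), 24117 (41.8 CPM), 24308 (35.8 CPM) and 24304 (33.2 CPM). The same libraries had the 4 highest B cell sums of all 30, at 946, 720, 1050 and 612 CPM. They were also the 4 deepest RPM libraries, with 1257240, 1511480, 917819 and 907658 counts. The macrophage genes Vcam1, Adgre1, Spic and Hmox1 summed to 4190, 5200, 5570 and 5320 CPM in them, the 4 lowest sums among RPM. Over the full lists, 10 of 11 B cell genes and 10 of 10 T cell genes were in the table. The 10 B cell genes summed to 246 to 1950 CPM in WT RPM (median 606) and 715 to 942 CPM in WT Mono (median 840). Most of the WT Mono sum was Ighm, at 577 ± 38.3 CPM against 270 ± 343 CPM in WT RPM. Fcer2a was about level, with means of 9.73 and 9.53 CPM, and all the other B cell genes had higher means in WT RPM. In iHPC the 3 B cell markers had a median sum of 437 CPM, above that of WT RPM, while Cd200 was lower there. Cd79b alone was higher in iHPC, at 347 ± 123 CPM against 250 ± 90.7 CPM in WT RPM. Cd79a and Ms4a1 went the other way, with means of 27.5 and 23.7 CPM in iHPC and 62.4 and 90.5 CPM in WT RPM. The T cell genes summed to 51.6 to 315 CPM in WT RPM and 0 to 12.8 CPM in WT Mono. Of the 4 defining endothelial markers, Kdr, Emcn and Egfl7 were at 0 counts in WT RPM, and Cdh5, Kdr, Emcn and Egfl7 together reached at most 8.60 CPM there. The 9 endothelial and stromal genes in the table, of 10 listed, summed to 331 to 503 CPM in WT RPM and 0 to 12.3 CPM in WT Mono. Most of this was Stab2, a scavenger receptor gene of sinusoidal endothelium, at 413 ± 71.9 CPM in WT RPM. The part of these cells, and of library depth, in the Cd200 difference was not tested.

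**Figure D1:**
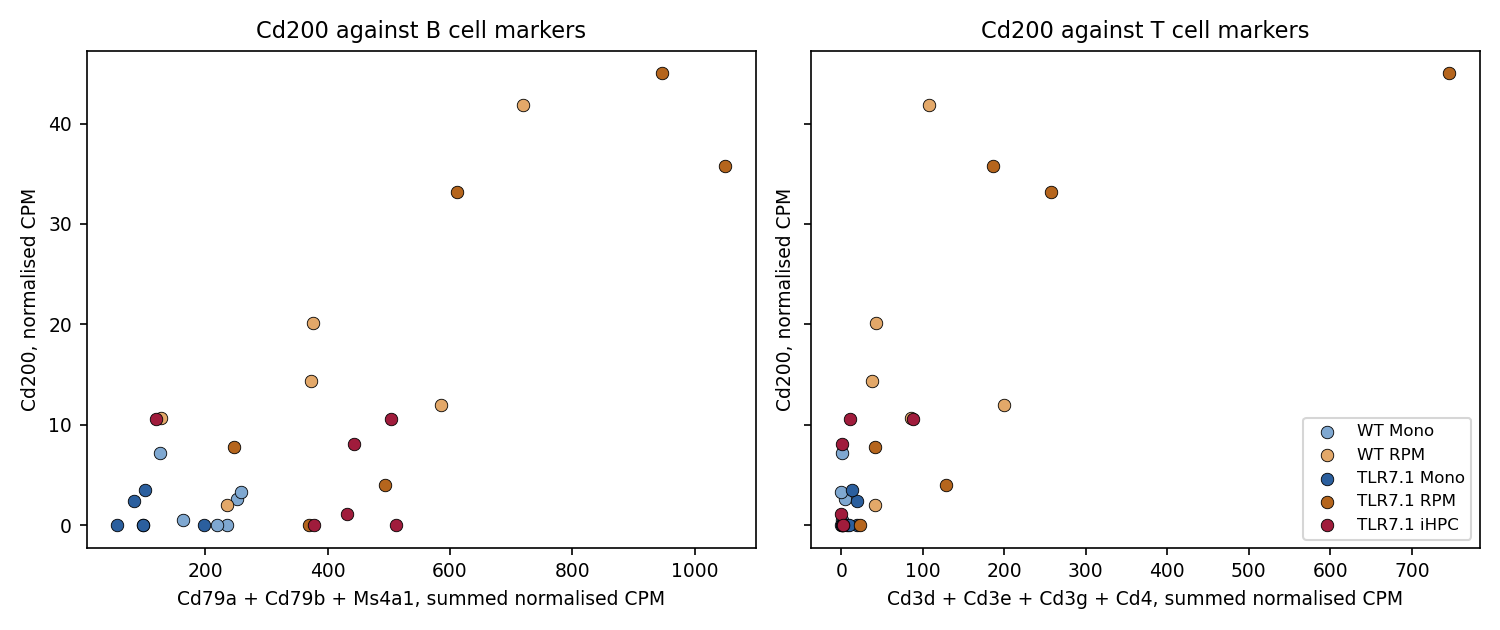
Cd200 (normalised CPM, linear axis) in each of the 30 libraries against the summed normalised CPM of 3 B cell markers (left) and 4 T cell markers (right), coloured by group. The 4 points above 30 CPM of Cd200 are RPM libraries and lie at 612 to 1050 CPM of B cell markers.

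Cd200r1, the inhibitory receptor, was found in every group, with group means that ran upward from WT Mono to iHPC. It ran from 10.0 to 37.3 CPM in WT Mono (median 17.6) and from 21.4 to 203 CPM in WT RPM (median 138). The lowest WT RPM value is 2 counts in the library of mouse 24323, the shallowest of all with 95002 counts. TLR7.1 Mono held 29.7 to 62.4 CPM (median 47.2), TLR7.1 RPM 113 to 241 CPM (median 188) and iHPC 331 to 530 CPM (median 409). The iHPC values did not overlap with those of any other group, while every other pair of neighbours in the order of means overlapped. The step from WT RPM (123 ± 73.2 CPM) to TLR7.1 RPM (185 ± 43.2 CPM) was smaller than the larger SD. By pooled counts iHPC held 2.31 times the level of RPM (2.13 to 2.50) and 8.71 times that of Mono (7.88 to 9.64).

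Outside the iHPC, Cd200r1 was the gene with the clearest tests. It was higher in WT RPM than in WT Mono by a log2 of 2.65 ± 0.310 (adjusted p = 1.31e-08), in 6 of 6 mice. Between genotypes it was higher in TLR7.1 Mono than in WT Mono, 47.8 ± 12.1 against 20.5 ± 9.46 CPM, a log2 of 1.21 ± 0.301 (adjusted p = 0.0197). The call was lost when mouse 24028, 24261, 24304, 24415 or 24416 was left out, with log2 values of 1.11 to 1.17 and adjusted p of 0.0591 to 0.0826. In RPM the genotype difference was a log2 of 0.50 ± 0.286 and was not called (adjusted p = 0.306). The difference between the 2 genotype effects was a log2 of -0.71 ± 0.412 and was not called either (adjusted p = 0.591).

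Cd200r3, the DAP12-linked receptor of basophils and mast cells, was near 0 in every group but iHPC. Pooled over 6 libraries it held 1510 counts in iHPC, against 12 in RPM and 1 in Mono of the same mice, and 0 and 1 in those of WT mice. In iHPC it ran from 129 CPM (mouse 24261) to 334 CPM (mouse 24107), with a median of 245 CPM. In TLR7.1 RPM it was 13.0 CPM in mouse 24068, 4.65 in mouse 24107, 1.08 in mouse 24308 and 0 in the other 3. All 6 iHPC libraries therefore lay above all others. By pooled counts the level in iHPC was 92.0 times that of RPM (52.5 to 178). As a log2 ratio of group means it was 6.24, and 7.64 without mouse 24068. Against Mono the ratio was 2270 with an interval of 407 to 89800, since it rests on 1 Mono count.

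Between RPM of both genotypes Cd200r3 was called higher in TLR7.1 (adjusted p = 0.0459). This rests on 12 counts in 3 libraries against 0 in WT, at least 3.23-fold higher when WT RPM are set to a floor of 3 counts over the group. In limma the log2 difference was 0.93 and not called, with the mouse as a random block (adjusted p = 0.565) or with no mouse term (adjusted p = 0.57). DESeq2 gave an adjusted p of 0.108, and the call was also lost with no filter on low counts (0.0606) and without any 1 of mice 24028, 24068, 24107, 24117, 24214, 24308, 24323, 24415 or 24416 (0.0518 to 0.150). The basophil markers Mcpt8 and Fcer1a had 1 count each in the RPM library of mouse 24068, and the 4 defining basophil markers summed to 0 to 5.21 CPM in TLR7.1 RPM. Their part in these Cd200r3 counts was not tested.

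Cd200r4, the second DAP12-linked receptor, followed the order of Cd200r1 at lower levels. WT Mono had 1.17 to 25.5 CPM (median 4.63), TLR7.1 Mono 8.11 to 35.9 CPM (median 12.0), WT RPM 10.7 to 113 CPM (median 55.2) and TLR7.1 RPM 27.9 to 135 CPM (median 63.8). In iHPC it ran from 176 to 390 CPM (median 252), above every library of the other groups. The 4 lower groups overlapped with their neighbours, and their steps were smaller than the larger SD of each pair. It was higher in WT RPM than in WT Mono by a log2 of 3.02 ± 0.542 (adjusted p = 2.49e-05), in 6 of 6 mice. TLR7.1 Mono differed from WT Mono by a log2 of 1.23 ± 0.536, nearly the size of the Cd200r1 difference but with a wider error, and was not called (adjusted p = 0.494). Without mouse 24117, whose WT Mono library was the highest of its group, it was called at a log2 of 2.18 (adjusted p = 0.0192). The iHPC level was 3.03 times that of RPM (2.72 to 3.38) and 15.0 times that of Mono (12.8 to 17.6).

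Klra2, the Ly49B gene, was a monocyte transcript that reached its highest level in iHPC. It ran from 368 to 542 CPM in WT Mono (median 422) and from 200 to 373 CPM in TLR7.1 Mono (median 320). RPM held 68.8 to 272 CPM in WT (median 165) and 31.9 to 232 CPM in TLR7.1 (median 123). In iHPC it ran from 504 to 672 CPM (median 528), above all Mono and RPM libraries of the TLR7.1 mice, while the highest WT Mono library lay inside the iHPC range. Klra2 was lower in WT RPM than in WT Mono by a log2 of -1.36 ± 0.256 (adjusted p = 4.58e-05), with no overlap between the groups. TLR7.1 Mono were at a log2 of -0.50 ± 0.241 from WT Mono, which was not called (adjusted p = 0.644). With only the libraries of those groups in the model it was called, at a log2 of -0.49 (adjusted p = 0.0262). In RPM the genotype difference was a log2 of -0.33 ± 0.262 (adjusted p = 0.486). By pooled counts the level in iHPC was 3.80 times that of RPM (3.49 to 4.14) and 1.73 times that of Mono (1.65 to 1.82).

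Klra17, the Ly49Q gene, had the widest gap between iHPC and the rest among the Ly49 genes. In iHPC it was 495 CPM in mouse 24068, 559 in 24107, 337 in 24261, 493 in 24304, 354 in 24308 and 194 in 24380. WT Mono held 0 to 5.67 CPM (median 3.56) and TLR7.1 Mono 0 to 11.1 CPM (median 5.45). RPM had 3 counts in 2 of 6 libraries in TLR7.1 and 0 counts in all 6 in WT. The lowest iHPC library was far above the highest of any other group. Klra17 was called lower in WT RPM than in WT Mono (adjusted p = 0.00726), at least 3.99-fold by the floor of 3 counts over the group, with counts in 5 of 6 WT Mono libraries. The Mono groups differed by a log2 of 0.79 ± 0.515, not called (adjusted p = 0.960), and both RPM groups were at or under the floor. The pooled ratio of iHPC was 653 to RPM (223 to 3170) and 76.1 to Mono (58.0 to 102).

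**Figure D2:**
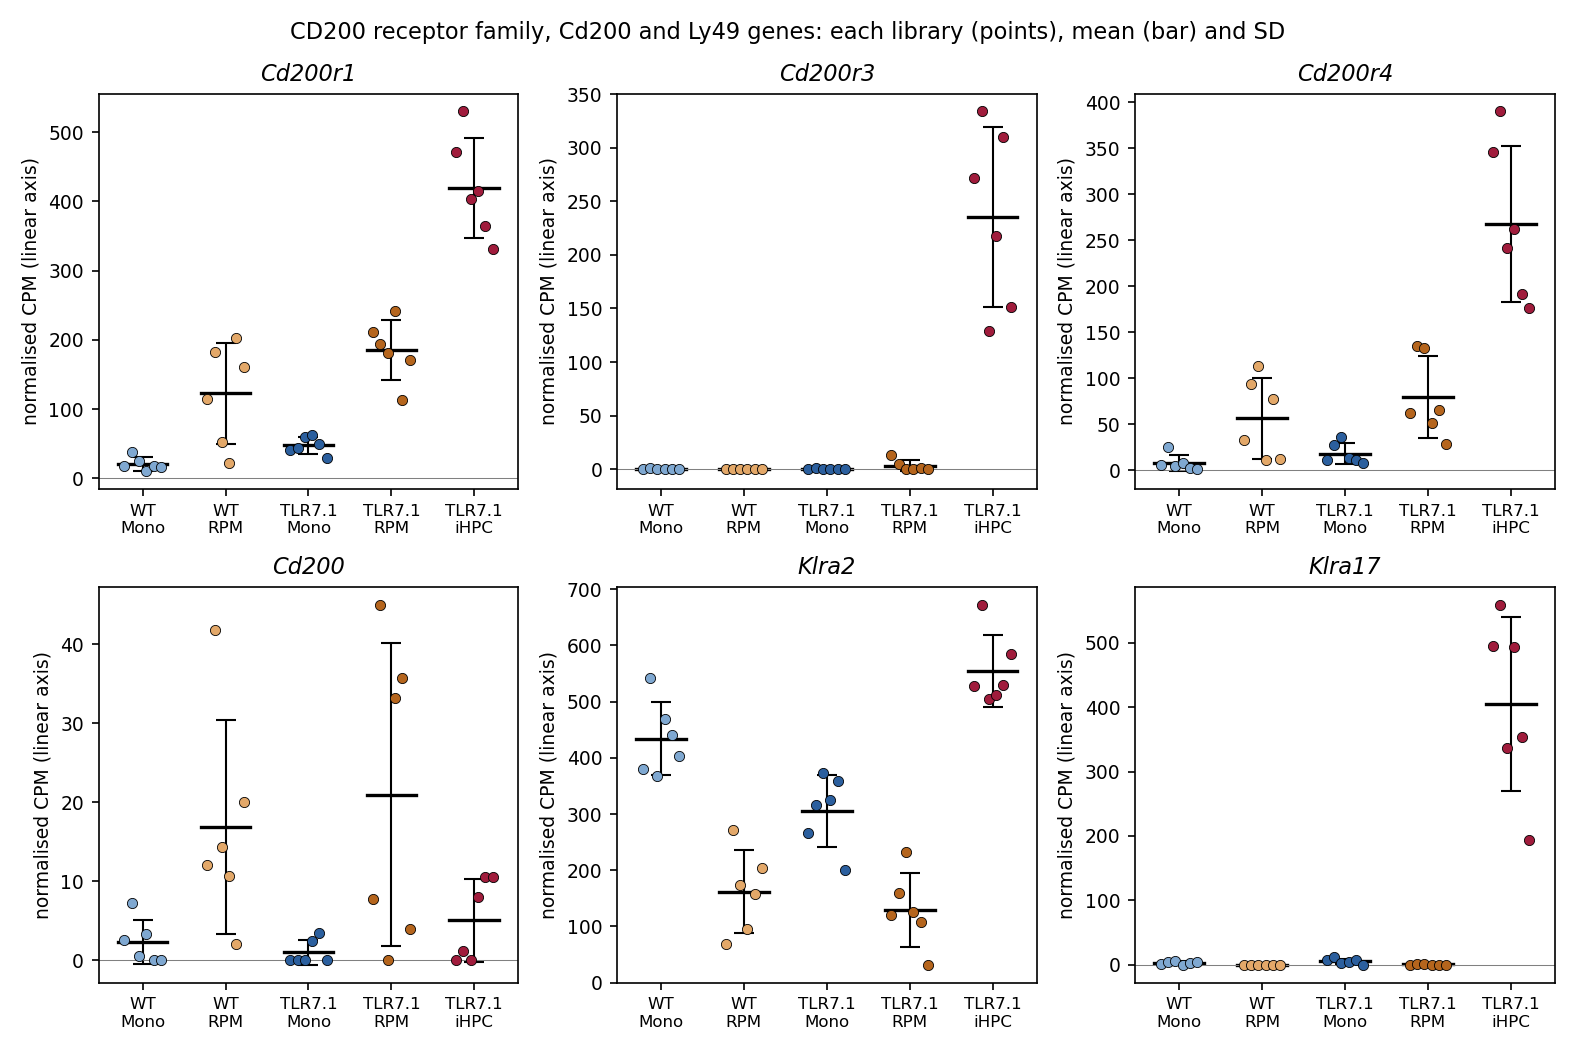
Normalised CPM (linear axis, 1 panel a gene) in each library (points), with the mean (bar) and SD of the 6 libraries of each group. For Cd200r1, Cd200r3, Cd200r4 and Klra17 the 6 iHPC points lie above all other points, for Klra2 the highest WT Mono point reaches into the iHPC range, and for Cd200 the RPM points are the highest.

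Counted over the 6 genes, 5 of 6 were called between WT RPM and WT Mono. Cd200, Cd200r1 and Cd200r4 were higher in RPM, where 23.7% of all genes tested were called higher. Klra2 and Klra17 were lower, where 22.5% were called lower, and Cd200r3 had too few counts for either. With only those 12 libraries in the model and the filter set anew on them, 3 of the 6 were called. Klra17 and Cd200r3 passed the main filter through their iHPC libraries alone. Nothing is therefore read from the calls of these genes between the other groups. Genotype calls were fewer. In Mono 1 of 6 was called, Cd200r1, higher, and 1.8% of all genes were called higher and 0.299% lower. In RPM 1 of 6 was called, Cd200r3, higher, beside 4.48% of all genes higher and 3.77% lower. The difference between the genotype effects was called for 0 of 6 by edgeR (0.399% of all genes higher and 0.29% lower) and for 0 of 6 in every alternative, DESeq2 included, with 0 of 6 at an unadjusted p under 0.05. WT Mono and WT RPM serve in several of these comparisons, so they are not independent of each other.

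**Figure D3:**
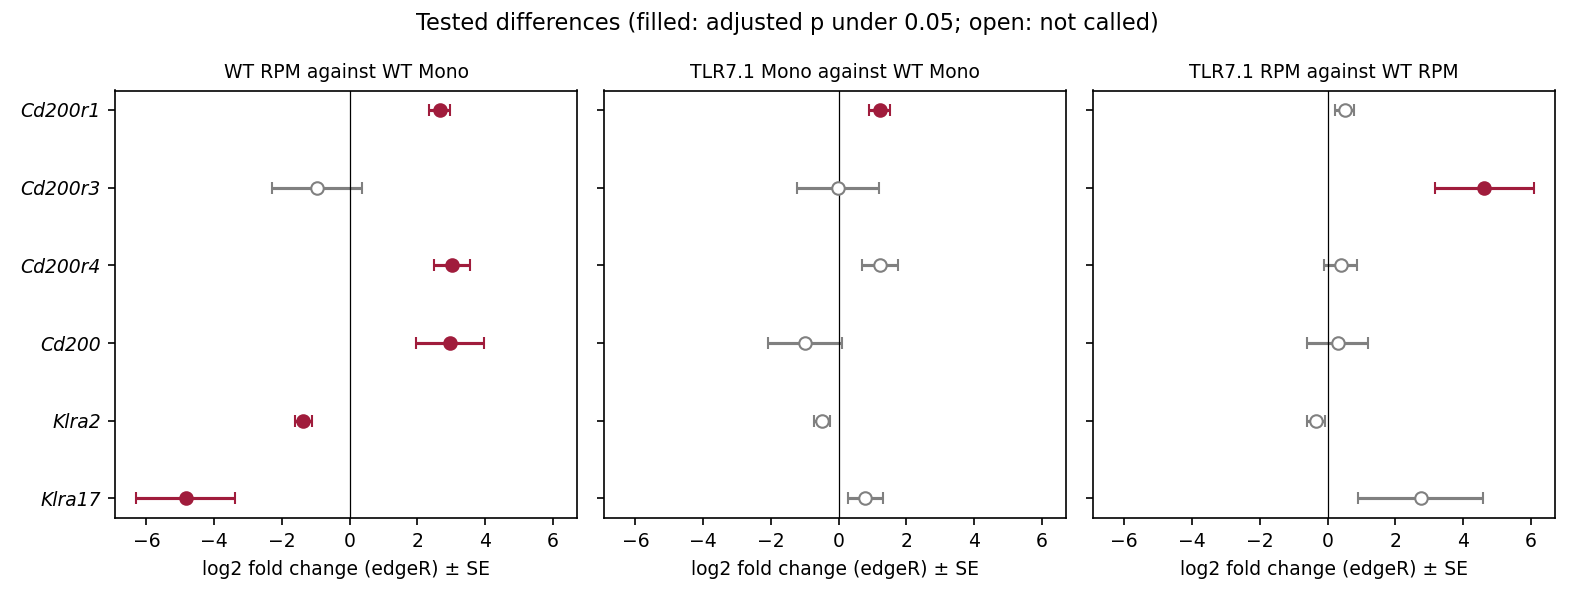
Log2 fold changes ± SE from edgeR for the 6 genes in WT RPM against WT Mono and in TLR7.1 against WT within Mono and within RPM (n = 6 libraries a group). Filled points were called, with 5, 1 and 1 of the 6 genes in the 3 panels. Nothing is read from the filled points of Klra17 and Cd200r3, which passed the filter through iHPC alone. Fitted values against a group at 0 counts (Klra17 and Cd200r3 in WT RPM) depend on the prior count and are no bound.

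All 6 iHPC libraries stood above all 6 RPM libraries for 5 of the 6 genes, as they did for 6.07% of all genes tested, and above all 6 TLR7.1 Mono libraries for the same 5, as for 14.2% of all genes. By edgeR 13.6% of genes were called higher and 13.5% lower in iHPC than in RPM, and 19.3% and 19.4% against Mono. The genes were selected on this contrast, so nothing is read from those shares. Per kilobase of exon (GENCODE M21), iHPC held 340 CPM of Klra17, 292 of Klra2, 131 of Cd200r4, 125 of Cd200r1, 39.4 of Cd200r3 and 1.52 of Cd200. On that scale Klra17 and Klra2 were the leading pair, and the inhibitory Cd200r1 and the DAP12-linked Cd200r4 lay side by side. The order depends on the exon lengths, from 1192 bases for Klra17 to 5984 for Cd200r3. The annotation behind the counts is not named and may give other lengths. In WT Mono the per-kilobase level was 229 CPM for Klra2 and 2.48 for Klra17. Reads could be shared between relatives to a small extent: of all 50-base words in the transcripts, 1.16% of those of Cd200r1 and 4.94% of those of Cd200r4 occur in another gene, 2.69% for Cd200r3 (scattered over 77 genes) and 0 for Cd200, Klra2 and Klra17. Of the 6 genes, Klra17 alone overlaps others in the annotation, 2 genes on the opposite strand, of which Gm17631 had 0 counts and Gm44248 is not among the identifiers used here.

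Basophil genes were high in 5 of the 6 iHPC libraries. The summed level of Cpa3, Mcpt8, Fcer1a and Ms4a2 was 1920 CPM in mouse 24068, 2860 in 24107, 1480 in 24304, 1500 in 24308 and 2620 in 24380, but 0.925 CPM in 24261, where Cpa3, Fcer1a and Ms4a2 were at 0 counts and Mcpt8 at 1. In TLR7.1 RPM and Mono these sums were at most 5.21 and 1.20 CPM. In the library of mouse 24261 Cd200r3 was 129 CPM, the lowest of the 6, Klra17 337, Cd200r1 403, Cd200r4 242 and Klra2 504 CPM. All 5 of these values exceeded every RPM and Mono library of the TLR7.1 mice. When iHPC were represented by that library alone, the log2 ratio to all 6 RPM libraries was 5.36 for Cd200r3, against 6.24 with all 6 iHPC libraries. Without mouse 24261 it was 6.10, but there its RPM library, at 0 CPM of Cd200r3, was left out as well, which raises the RPM mean. For Klra17 the ratio with that iHPC library alone was 9.43, against 9.70 with all 6, and for Cd200r1 1.12, against 1.18. Of the whole basophil and mast cell list, 14 of 18 genes had counts in iHPC and the list summed to 25.9 to 4740 CPM there, and to 739 to 1350 CPM in TLR7.1 RPM, where Ccr3 (910 CPM) and Slc45a3 (116 CPM) made up most of it. The share of Cd200r3 that came from basophils in the other 5 libraries was not tested.

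**Figure D4:**
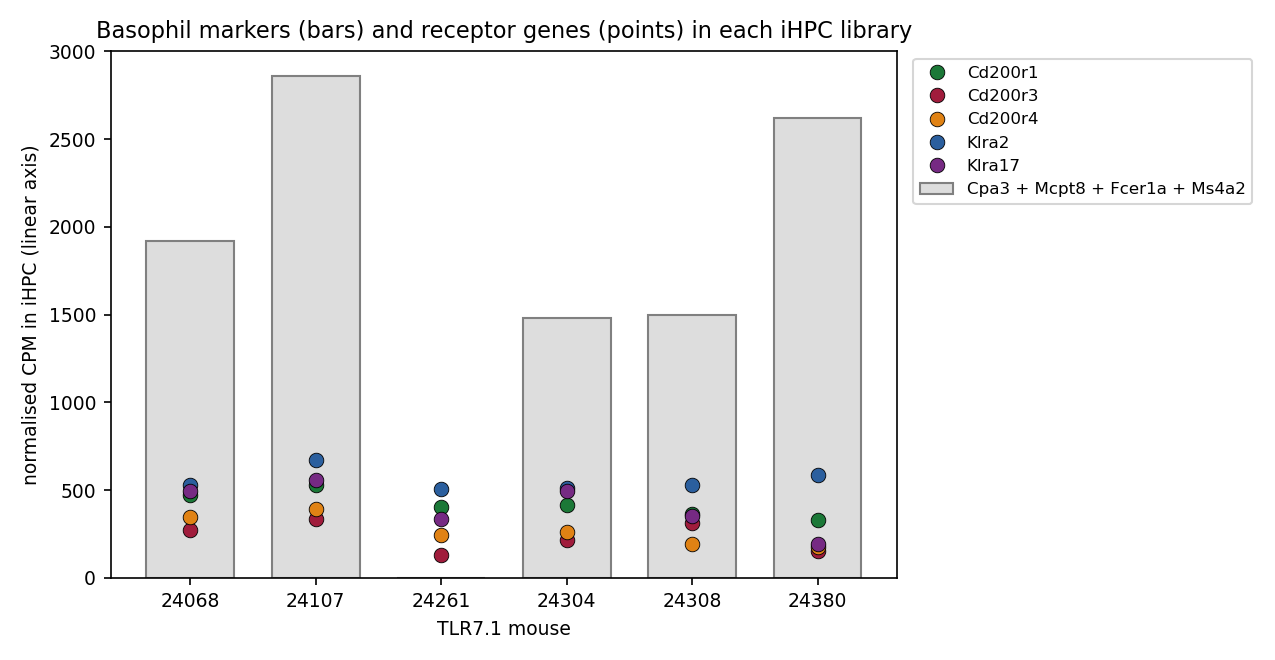
Summed normalised CPM of 4 basophil markers (bars, linear axis from 0) and normalised CPM of 5 receptor genes (points) in the iHPC library of each TLR7.1 mouse. The bar of mouse 24261 is at 0.925 CPM while its receptor genes lie between 129 and 504 CPM.

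Markers of other cells known to carry Ly49 receptors varied between the iHPC libraries. Of the plasmacytoid dendritic cell markers Siglech, Ccr9 and Klk1 were at 0 counts in iHPC, and with Cox6a2 they summed to at most 3.33 CPM. Over the whole list of 10 genes iHPC had 207 to 347 CPM and TLR7.1 RPM 542 to 870 CPM. The natural killer markers Ncr1, Klrb1c, Klrk1 and Nkg7 summed to 0 to 236 CPM in iHPC (median 43.5), with Klrb1c at 0 counts, and to 10.4 to 679 CPM in TLR7.1 RPM. The whole list of 12 natural killer genes spanned 0 to 705 CPM in iHPC, and the value of mouse 24107, 705 CPM, was exceeded by 1 RPM library alone (876 CPM). The neutrophil markers S100a8, S100a9, Retnlg and Mmp8 spanned 8.72 to 1270 CPM in iHPC, and the value of mouse 24380, 1270 CPM, was the highest of all 30 libraries. Conventional dendritic cell markers Flt3, Zbtb46, Xcr1 and Clec9a spanned 27.0 to 131 CPM in iHPC, against 39.8 to 216 CPM in TLR7.1 RPM. These markers did not run together by mouse. In mouse 24261 the 4 natural killer markers were at 0, the neutrophil markers at 655 CPM and Klra17 at 337 CPM. In mouse 24380 they were at 0 and 1270 CPM, with Klra17 at 194 CPM and 17.6 CPM over the whole natural killer list. In mouse 24304 they were at 51.0 and 8.72 CPM, with Klra17 at 493 CPM. The part of these cells in the receptor levels was not tested.

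The rest of each family stayed low. Of 19 other Ly49 genes listed, 11 were in the table, 10 had counts and 0 passed the filter. The highest in iHPC were Klra3 at 8.14 ± 3.60 CPM, Klra8 at 6.10 ± 14.9 CPM and Klra9 at 2.68 ± 5.79 CPM. Cd200r2, the remaining listed receptor of the CD200 family in the table, had 3 counts, all in iHPC. Among the other lectins of the natural killer complex, 6 of 20 passed the filter, Klrb1b through its iHPC counts alone. Of the other 5, 1 was higher and 1 lower in iHPC than in RPM, beside 13.6% and 13.5% of all genes. Their median log2 was -0.58 beside -0.005 over all genes. Klrb1b, an inhibitory NKR-P1 receptor, was 137 ± 71.9 CPM in iHPC and 3.41 ± 6.09 CPM in RPM, with ranges of 35.2 to 217 and 0 to 15.0 CPM, and is given without a test. It was 135 CPM in the iHPC library of mouse 24261. Clec2d, which encodes its ligand, was not called against RPM (adjusted p = 0.107) but was higher than in Mono (log2 2.35 ± 0.578, adjusted p = 0.00145). Clec2i was higher in iHPC than in RPM (log2 1.14 ± 0.404, adjusted p = 0.0331) and lower than in Mono (log2 -1.59 ± 0.356, adjusted p = 0.00055). Klrk1, the gene of the activating receptor NKG2D, was lower in iHPC than in RPM (log2 -4.13 ± 0.859) and in Mono (log2 -4.63 ± 0.852), with 4.07 ± 9.96 CPM in iHPC. Klrb1f was 84.5 ± 24.6 CPM in Mono and 4.38 ± 4.29 CPM in iHPC (log2 -4.50 ± 0.800).

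Genes of the signalling steps were tested from listed members. Of 9 DAP12 and FcRgamma genes tested, Tyrobp and Fcer1g lie near a limit of the data given below. Of the other 7, 5 were higher and 0 lower in iHPC than in RPM, with a median log2 of 0.805. Over all genes tested 13.6% were called higher and 13.5% lower in that comparison. Lat2, an adaptor of immune receptor signalling, was 303 ± 59.2 CPM in iHPC and 27.3 ± 28.1 CPM in RPM (log2 3.31 ± 0.368, adjusted p = 1.38e-08). Pik3ap1, an adaptor that couples receptors to phosphoinositide 3-kinase, was 812 ± 112 against 399 ± 72.3 CPM (log2 1.03 ± 0.157). The kinase gene Syk was 681 ± 43.1 against 342 ± 49.8 CPM (adjusted p = 4.86e-06), and the phospholipase gene Plcg2 166 ± 36.5 against 93.8 ± 43.7 CPM (adjusted p = 0.0129). Against Mono 2 of these 7 were higher and 1 lower (median log2 0.13), beside 19.3% and 19.4% of all genes. Pik3ap1 and Syk were higher (log2 2.37 ± 0.162 and 1.29 ± 0.151) and Plcg2 lower (log2 -1.08 ± 0.236). Tyrobp, which encodes DAP12 itself, was not called in either comparison, at 804 ± 281 CPM in iHPC, 1040 ± 493 in RPM and 589 ± 89.1 in Mono. Its levels are near a limit of the data. In the 18 libraries of at least 1000000 counts the densest gene of at least 500 exonic bases held 1.48 to 1.59 reads per base, and Tyrobp, Fcer1g and B2m reached 93.9%, 82.5% and 100% of the densest gene of a library. Differences in these 3 genes are therefore not read here. Klra17 reached at most 39.7% and Klra2 28.0%.

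Downstream of CD200R1, 2 of 6 tested genes were lower and 0 higher in iHPC than in RPM. Over all genes tested 13.5% were called lower and 13.6% higher than in RPM, and 19.4% and 19.3% than in Mono. These shares stand beside each count of this paragraph. Dok2, which encodes the adaptor bound by CD200R1, was 6.23 ± 4.75 CPM in iHPC, 55.0 ± 31.7 CPM in RPM and 36.7 ± 13.3 CPM in Mono (log2 -3.21 ± 0.555 against RPM, adjusted p = 3.28e-05, and -2.61 ± 0.545 against Mono, adjusted p = 0.000243). Nck1 was lower in both comparisons as well (log2 -1.13 ± 0.206 and -0.75 ± 0.203), while Dok1 was not called in either. Rasa1 and Inpp5d were higher than in Mono (log2 1.26 ± 0.286 and 0.82 ± 0.205) and not called against RPM. The median of the 6 was a log2 of 0.08 against RPM and 0.04 against Mono. Of the 3 tested ITIM phosphatase genes, Ptpn6 (SHP-1) was higher in iHPC than in RPM (log2 0.75 ± 0.119, adjusted p = 8.19e-06) and Ptpn11 and Inpp5d were not called. Against Mono Inpp5d was the 1 called. Of 8 class I MHC genes other than B2m, Tapbp and Calr were lower in iHPC than in RPM (log2 of -0.565 ± 0.216 and -0.44 ± 0.149) and 0 were higher. Tapbp, which encodes the peptide loading protein tapasin, was also lower than in Mono (log2 -0.73 ± 0.212, adjusted p = 0.00626), the 1 call of the 8 there. H2-K1 and H2-D1 were called neither against RPM nor against Mono.

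Of the 32 tested genes of these lists, the 3 near the limit and those that passed the filter through the higher group of a comparison alone were left out of the counts between populations. In iHPC 7 of 28 were higher and 5 lower than in RPM, beside 13.6% and 13.5% of all genes, and 5 of 27 were higher and 7 lower than in Mono, beside 19.3% and 19.4%. Over all 32 genes 13 were called against RPM, and 8 without mouse 24068 or without mouse 24261. In WT RPM 7 of 28 were higher and 5 lower than in WT Mono, beside 23.7% and 22.5% of all genes. Among them were Lat2 (log2 -4.04 ± 0.391) and Clec2i (log2 -3.48 ± 0.428), both lower in RPM. Between genotypes edgeR called 0 of 32 in Mono, beside 1.8% of all genes higher and 0.299% lower. In RPM it called 0 of 32, beside 4.48% and 3.77%. At an unadjusted p under 0.05 there were 1 and 4 of the 32, beside 823 and 2516 of all 11030 genes. The difference of the genotype effects was called for 0 of 32 (2 at an unadjusted p under 0.05), beside 0.399% of all genes higher and 0.29% lower. DESeq2 called 0 in Mono and 1 in RPM, and with libraries under 300000 counts left out 4 were called in RPM.

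**Figure D5:**
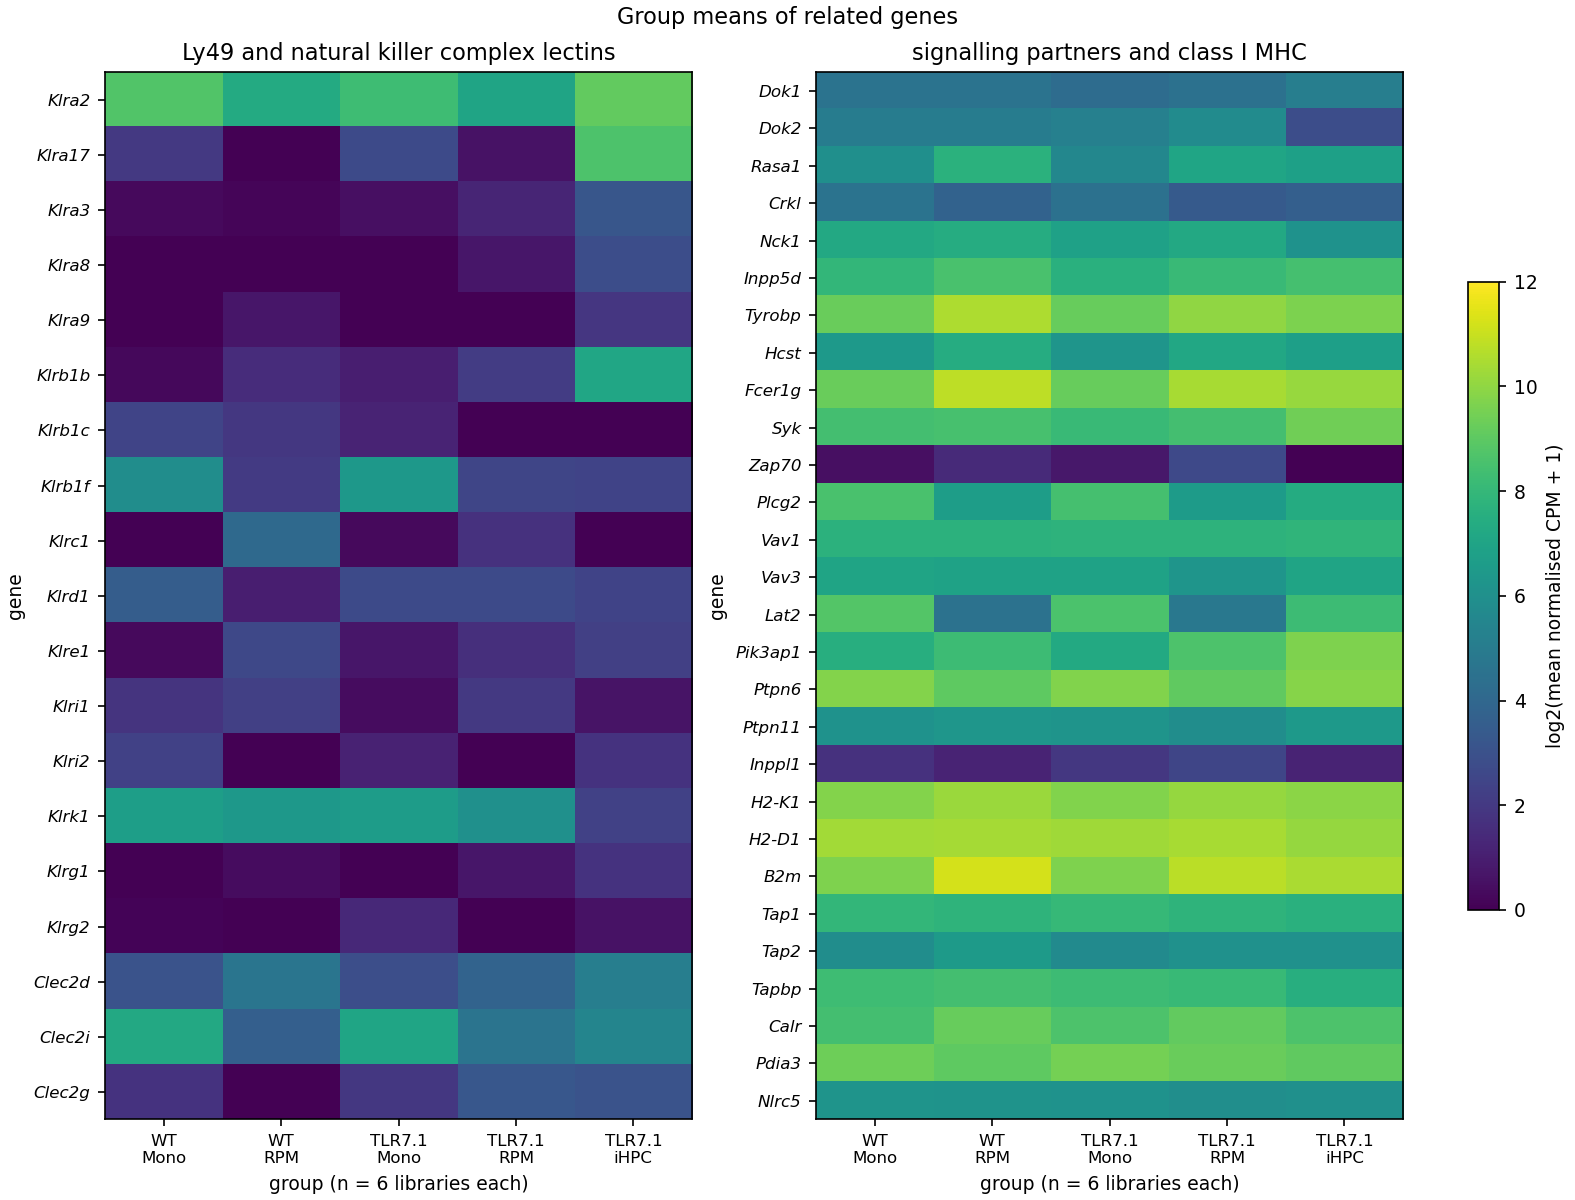
Group means as log2(mean normalised CPM + 1) for Klra2, Klra17 and related lectins with a mean of at least 1 CPM in some group (left) and for signalling and class I MHC genes (right), n = 6 libraries a group. Klra17 and Klrb1b are bright in the iHPC column only, Dok2 and Klrk1 are darkest there, and Tyrobp, Fcer1g and B2m are bright in every column.

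Across the 30 libraries the genes whose log2(CPM + 1) ran most like each of the 6 were sought among 8844 genes with at least 20 CPM in some group. These correlations are descriptions, since the libraries fall into 5 populations and 3 libraries come from each TLR7.1 mouse. For Cd200r1 the closest were Cp (r = 0.927), Fcgr4 (0.898) and Rhoc (0.893), and for Cd200r4 Fpr2 (0.884), Fcgr4 (0.877) and Bcl2l15 (0.877). Fcgr4, an activating Fc receptor gene, averaged 160 CPM in Mono of the TLR7.1 mice, 845 CPM in their RPM and 1550 CPM in their iHPC. Cd200r3 ran closest to Sox5 (0.978), Slc5a5 (0.969) and Lysmd2 (0.958), which like it were low outside iHPC, at 57.8, 202 and 162 CPM in iHPC and at most 4.87 CPM in any other group. Klra17 ran closest to Il12b (0.931), Cxcl14 (0.928) and Ifnlr1 (0.928). Il12b and Cxcl14 were listed at 0 CPM in the 4 other groups and averaged 27.2 and 25.4 CPM in iHPC. For Klra2 the closest were Mtpn (0.863), Atxn7l1 (0.859) and Dock10 (0.858), high in both Mono groups and iHPC. Cd200 had the loosest companions, Lrrn3 (0.704), Pax5 (0.701) and Miga1 (0.695), of which Pax5 is the B cell identity gene. Among the 6 genes themselves Cd200r3 and Klra17 (r = 0.895) and Cd200r1 and Cd200r4 (0.888) ran most alike, and Cd200 and Klra2 least (-0.392).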

How the data were processed

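Full-length cDNA from 500 sorted cells was made with the SMART-Seq v4 kit and turned into libraries with Nextera XT, per the labels' protocols. The authors deposited whole-number read counts per Ensembl gene, 1 column for each of 30 libraries, without normalization. Per the submitters' processing notes the build was NCBIM37 and the tools were HTSeq 0.4.1, TopHat, SAMtools, Bowtie, FastQC, CASAVA 1.8.2 and Picard. No strand setting, read filter or annotation release is named in these sources. Symbols and exon lengths came from GENCODE M21 (32919 of 37991 identifiers matched), and promoter windows from RefSeq on GRCm38.p6. Those coordinates are not on the build of the counts. The 2 overlapping genes of Klra17 are on the opposite strand.

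Genes were filtered with filterByExpr (11030 kept), scaled by TMM and fitted with edgeR 4.0.16 (quasi-likelihood, robust, 1 mean per group, all 30 libraries, R 4.3.3). Tests were two-sided, Benjamini-Hochberg adjusted over all genes tested, and called at an adjusted p under 0.05. The model was tested on simulated counts with 200 changed genes. The named genes are the 6, the up to 4 most changed called genes of each list with at least 20 CPM, all of short lists, and the 3 most alike of each of the 6, with Clec2d, Dok1, H2-K1, H2-D1, Klra3, Klra8 and Klra9 added after their values were seen. Members and lists were chosen with earlier results of these data known. A listed B cell marker is not reported here and is in none of the sums. Intervals (95%, exact binomial, SciPy 1.17.1) and the floor of 3 counts cover counting error only. Promoter windows were aligned with Biopython 1.88. Alternatives were DESeq2 1.42.0, other scaling, no filter, only the groups compared, a block, the collection date, libraries under 300000 counts left out and each mouse left out. Counts of listed genes between populations left out those that reached 75% of the read density of the densest gene in some library.

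Libraries of 1 mouse share their number in the labels, so they are paired by animal. Their deviations from the group means correlated at -0.08 to 0.196 over 24 pairs of libraries, 2 of them over 0.1. The block was a fixed mouse term in edgeR, or a random one in limma 3.58.1 between genotypes.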

Additional observations from a re-analysis of the deposited data

Results flagged for a closer look

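Among 30 sets of 6 libraries, 1 for each gene and group, 4 had a single library whose gap to its nearest neighbour exceeded 0.625 of the range of the group; chance gives such a gap in about 1 of 20 sets. In WT Mono mouse 24117 held the highest Cd200r4 value, 25.5 CPM, with the other 5 at or below 7.52 CPM. The remaining 3 concern Cd200r3 at the level of single counts. They are TLR7.1 RPM of mouse 24068 (13.0 CPM), WT Mono of mouse 24117 (0.654 CPM, 1 count) and TLR7.1 Mono of mouse 24107 (0.616 CPM, 1 count). No iHPC library was set apart in this way for any of the 6 genes.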

How the results depend on the processing

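The 5 calls between WT RPM and WT Mono, of which that of Klra17 is not read, were made under all alternatives but 1. With only the groups compared in the model, 3 were made. There the filter on low counts was set anew on those libraries. In Mono between genotypes, 1 of the 6 genes was called, against 2 with only the groups compared and 0 to 2 with 1 mouse left out. In RPM, 1 call became 0 with the DESeq2 test, with no filter, with only the groups compared, with the replicate block and in limma with no mouse term, and 0 to 1 with 1 mouse left out. The replicate block by mouse gave 5, 1, 0 and 0 calls among the 6 genes for the 4 tested comparisons and changed no other call of them. Directions of uncalled differences reversed in a few settings, where the cause was not tested. For Cd200r3 these were WT RPM against WT Mono with DESeq2 (log2 1.23 against -0.97) and TLR7.1 against WT Mono with 1 mouse left out (-0.96 to 0.94 against -0.02). For Cd200 between RPM genotypes (0.30) the log2 was -0.29 with the replicate block and -0.289 in limma with no mouse term, -0.72 with the collection date and -0.06 to 0.92 with 1 mouse left out. For the difference of the genotype effects, Klra2 (0.17) was -0.006 to 0.341 with 1 mouse left out and Klra17 (1.96) was -0.031 with DESeq2. Related genes called against RPM (13 in iHPC) numbered 8 to 13 with 1 mouse left out and 7 with mouse 24261 as the only iHPC library, and against Mono (15) 6 with that library, fewer samples in each case, with a lone library assumed to vary like the other groups. Between genotypes, 0 related genes became 1 in Mono with only the groups compared, and in RPM 1 with DESeq2, 1 with no filter, 4 without libraries under 300000 counts and 0 to 3 with 1 mouse left out. The log2 ratio of Cd200r3 in iHPC to RPM (6.24) was 5.97 to 7.64 with 1 mouse left out, the highest without mouse 24068, whose RPM library had the highest CPM. Taken as a difference of mean log2(CPM + 1), where the added 1 lowers it, Klra17 against RPM was 8.15 (9.70) and Cd200r3 against Mono 7.69 (11.17), and 10.29 for the latter with mouse 24261 as the only iHPC library. That library and limma without a mouse term were chosen after seeing the data. Library totals limit the RPM groups most: in the library of 95002 counts, 1 count is 10.7 CPM.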

Other observations

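The iHPC library of mouse 24107 had the highest value of all 6 for each of the 5 receptors, with Cd200r1 at 530, Cd200r3 at 334, Cd200r4 at 390, Klra2 at 672 and Klra17 at 559 CPM. Its basophil markers were also the highest, at 2860 CPM. The iHPC library of mouse 24380, the shallowest of its group with 292507 counts, had the lowest Cd200r1 (331 CPM), Cd200r4 (176 CPM) and Klra17 (194 CPM) but the second highest Klra2 (585 CPM). In WT Mono, mouse 24117 had the highest value for every gene but Klra17, with Cd200r1 at 37.3, Cd200r4 at 25.5, Cd200 at 7.19 and Klra2 at 542 CPM, and 1 count of Cd200r3. These orders are given as values, with no test.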
